A study of Mus musculus with 3 samples.

Results

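The microglia of brains that carried metastases were selected here from the RNA of single cells, and they numbered 538 of the 5933 cells of that matrix, or 9.07% (95% interval 8.35 to 9.83%), out of 11510 cells in 3 matrices. A cell was kept when its unique molecules (UMIs) of P2ry12, Tmem119 and Gpr34 added up to at least 15, with Krt8 at or below 3, Cd3e at or below 1 and S100a9 at or below 10 UMIs. Those 6 genes chose the cells, so their levels below are descriptions. The sum of the 3 microglial genes was met by 665 cells, of which the limit on Cd3e removed 40, the limit on S100a9 removed 92 and the limit on Krt8 removed 0, with some cells past more than 1 limit. By the same rule 485 microglia were found in the naive brain.

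The brains came from female C57Bl/6 mice aged 2 to 3 months that carried Cx3cr1CreERT with ROSA-iDTR, the genotype for depletion, or Cx3cr1CreERT alone, the control genotype. All mice received tamoxifen, a pause of 1 month and diphtheria toxin, so the naive mice and the controls carry the recombinase and both drugs too. The Cre is driven by Cx3cr1, a gene of microglia and of many monocytes, and toxin kills cells in which ROSA-iDTR has been recombined. Metastases were started by carotid injection of E0771, a mouse mammary tumour line, and brains were taken about 2 weeks later. Naive brains held no metastases. Immune cells of 1 brain hemisphere were enriched on Percoll, stained with 35 tagged antibodies and a hashing antibody each, and loaded as 1 pool of 8 samples, and the submitters state that microglia remain in depleted samples. The matrix of the brain with metastases pools both genotypes, and no map from its cells to the genotypes was used here. It therefore counts as 1 sample, no test was possible, and every comparison below is a description of these cells.

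Microglia are macrophages that live in brain tissue from early development on. They survey the tissue with receptors such as the ADP receptor P2ry12 and the fractalkine receptor Cx3cr1, and their resting gene programme is held by the transcription factor Sall1 and by TGF-beta signalling. When they meet damage, microbial products or tumour cells they can release chemokines, which draw other leukocytes, and cytokines such as Tnf and Il1b. Under interferon-gamma they can also carry MHC class II, which presents peptides to CD4 T cells.

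The account of differences among these cells turns on MHC class II genes and on the interferon-induced chemokines Cxcl9 and Cxcl10, so the 250 bases before their start sites are shown (RefSeq, GRCm38.p6, 5' to 3' on the gene's strand). Capitals mark CCAAT or its reverse complement ATTGG, the letters of the Y box of MHC class II promoters, and the core of an interferon response element, GAAA, any 2 bases and GAAA again. H2-Aa encodes an MHC class II alpha chain and lies on the minus strand, with its window at chr17:34287824-34288073. H2-Eb1 encodes a beta chain on the plus strand, at chr17:34305617-34305866. Cxcl9 and Cxcl10, ligands of Cxcr3, a chemokine receptor of activated T cells, lie on the minus strand at chr5:92328080-92328329 and chr5:92348890-92349139.
H2-Aa: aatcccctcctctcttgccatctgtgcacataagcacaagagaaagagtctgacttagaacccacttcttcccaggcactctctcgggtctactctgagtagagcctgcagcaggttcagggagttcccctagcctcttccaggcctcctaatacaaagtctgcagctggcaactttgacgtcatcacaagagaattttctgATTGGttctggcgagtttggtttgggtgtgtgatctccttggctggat
H2-Eb1: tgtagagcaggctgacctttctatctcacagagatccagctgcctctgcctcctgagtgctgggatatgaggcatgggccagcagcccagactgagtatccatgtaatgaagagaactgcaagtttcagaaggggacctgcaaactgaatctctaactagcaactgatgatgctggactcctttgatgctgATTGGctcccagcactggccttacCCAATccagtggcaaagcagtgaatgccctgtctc
Cxcl9: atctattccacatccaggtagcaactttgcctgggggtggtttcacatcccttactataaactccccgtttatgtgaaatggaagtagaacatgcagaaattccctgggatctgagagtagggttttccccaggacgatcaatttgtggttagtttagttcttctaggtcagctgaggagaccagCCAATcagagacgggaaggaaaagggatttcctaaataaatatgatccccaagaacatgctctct
Cxcl10: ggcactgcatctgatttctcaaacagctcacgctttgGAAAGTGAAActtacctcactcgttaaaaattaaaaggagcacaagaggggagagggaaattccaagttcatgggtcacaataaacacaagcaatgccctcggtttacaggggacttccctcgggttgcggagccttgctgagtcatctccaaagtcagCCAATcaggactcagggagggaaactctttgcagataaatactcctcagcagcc
The Y box letters began 48 bases upstream of the start in H2-Aa, 59 and 35 bases in H2-Eb1, 65 bases in Cxcl9 and 54 bases in Cxcl10. Of the 4, Cxcl10 alone held the interferon response element core on either strand, at 213 bases upstream. Among all 32851 promoters of the table, searched on both strands over the same 250 bases, 33.8% held CCAAT and 2.98% held the interferon response element core. A match describes the letters and does not show binding.

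Values are given as corrected UMIs per 10000 corrected UMIs of the summed cells (CP10k), and brackets hold exact Poisson 95% intervals. Those intervals, and the exact Clopper-Pearson 95% intervals of shares, cover counting error only and not the spread between mice. The Poisson intervals treat corrected UMIs as counts and leave out the spread between cells as well. Members had a median of 14383.5 corrected UMIs (10498 to 16434) and 3587.5 genes per cell, naive microglia 10309 corrected UMIs and 3189 genes. The 3 chosen genes summed to a median of 30 UMIs in members, with quartiles of 23 and 40 and a highest value of 102. The 67 members just inside the limit, at 15 to 19, had 4.88 CP10k of Siglech and 30.9 of Lyz2. The 72 cells just outside it, at 10 to 14 and within the other limits, had 3.01 and 45.3 CP10k of these genes, so the limit crosses a gradual range and not a gap.

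Genes that the rule did not use were then read in the same cells. The macrophages and T cells set beside them were chosen for at most 3 and at most 2 UMIs summed over the 3 microglial genes. Microglial identity genes thus had to be lower in those cells, so the contrasts are a description. Siglech, a sialic acid binding lectin of microglia, had at least 1 UMI in 529 of 538 members (98.3%), against 4.17% of 840 macrophages and 3.14% of 574 T cells of the same matrix, which had medians of 14119.5 and 13002 corrected UMIs. Its level was 6.93 CP10k in members, against 0.0777 in macrophages and 0.0505 in T cells. Sall1 was found in 84.2% of members, against 1.19% of macrophages and 0.523% of T cells. All 23 measured homeostatic genes beyond those of the rule were at least 2-fold higher in members than in macrophages, with a median log2 ratio of 3.32, beside 13.7% of all 3326 genes measured in that comparison. Genes that define T cells, NK cells, B cells, astrocytes, neurons and tumour epithelium did not reach 0.5 CP10k in members or in naive microglia. The members thus held microglial genes beyond those of the rule, and some of them carried further markers as described next.

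**Figure D1:**
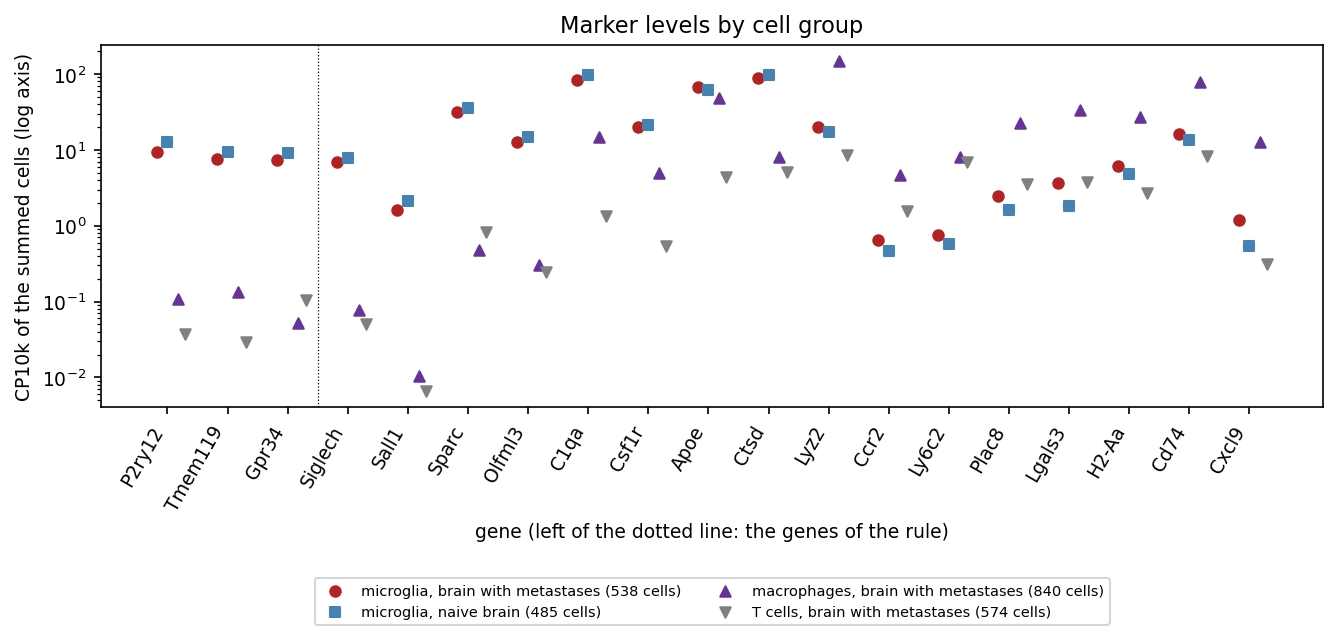
Level of 19 marker genes (CP10k, log axis) in 538 microglia of the brain with metastases, 485 microglia of the naive brain, 840 macrophages and 574 T cells, each point the sum over the cells of 1 group. Genes left of the dotted line chose the microglia, and Siglech, at 6.93 CP10k in members against 0.0777 in macrophages, did not.

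Markers of infiltrating cells were present in some members. The sum of Ccr2, Ly6c2, Plac8, Ms4a7 and Mrc1, genes of monocytes and of monocyte-derived or border macrophages, exceeded 3 UMIs in 127 of 538 members (23.6%), against 17.1% of naive microglia, 97.0% of macrophages and 66.6% of T cells, which carry several of these genes themselves. The 14 genes of the macrophage list summed to 39.4 CP10k in members and 29.4 in naive microglia. In addition 116 of the 538 members (21.6%) had a cell barcode that was also listed in another matrix, 91 in that of the naive brain and 27 in that of the blood. The share was 17.1% over the whole matrix and 14.0% in macrophages. Of the 91, 90 lay in the authors' gate for myeloid cells native to the brain, and 70 were microglia by the same rule in the naive matrix. The median of the 91 was 28004 raw UMIs, against 12918.5 in the 408 naive microglia not listed in the matrix of metastases. Results are therefore also given for the 422 members and 383 naive microglia found in 1 matrix, and for the 411 members with a marker sum of at most 3. Beyond those values, the part of the markers and of the shared barcodes in a result was not tested.

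The first comparison asked how microglia of brains with metastases differ from those of the naive brain. Few genes differed past 2-fold: across 3042 genes measured at 0.5 CP10k or more on at least 1 side, 5 were at least 2-fold higher (0.164%) and 0 at least 2-fold lower (0%). Those counts became 16 and 33 against the naive sample labelled control alone, and 12 and 0 against that labelled depleted alone. At 1.5-fold 57 genes were higher and 18 lower. Pearson's r of log2(CP10k + 0.1) was 0.985 between both populations, across genes, which are not independent replicates, and it was 0.970 between the naive sample labelled depleted (404 microglia) and that labelled control (81 microglia). The median size of a log2 ratio was 0.145 between the brain with metastases and the naive brain and 0.175 between both naive samples, and 877 of 3042 genes had a level in members between the levels of the naive samples. Both matrices had been normalised separately. Cx3cr1 had a median of 11 UMIs per microglial cell in the naive sample labelled depleted and 0 in that labelled control. The naive samples are called by their labels throughout. Microglia made up 404 of 1868 cells (21.6%) of the naive sample labelled depleted and 81 of 785 (10.3%) of that labelled control. Whether the 2 labels were exchanged was not tested.

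The 5 genes past 2-fold were of different kinds. Cxcl2, a chemokine for neutrophils, had 9.17 CP10k (8.95 to 9.38) in members and 3.83 CP10k (3.66 to 4.01) in naive microglia, 3.84 in the sample labelled depleted and 3.78 in that labelled control. It was spread over many cells, with a UMI in 301 of 538 members and 150 of 485 naive microglia. Its log2 ratio of 1.24 was 1.80 in cells found in 1 matrix and 1.49 in cells with a low marker sum. After each cell had been thinned to 5000 UMIs, 26.4% of members and 10.9% of naive microglia had at least 4 UMIs of Cxcl2. Tnfsf9, the ligand of the costimulatory receptor 4-1BB, had 1.37 CP10k (1.29 to 1.46) in members, against 0.561 CP10k (0.496 to 0.631) in naive microglia, and stood below the members in both naive samples, at 0.600 in that labelled depleted and 0.361 in that labelled control.

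Fn1, which encodes fibronectin, was at 1.15 CP10k in members and 0.416 in naive microglia together, but at 0.933 in the naive sample labelled control. The other 2 genes rested in large part on single cells. One member held 252 of the 455 UMIs of Vtn (55.4%), and one held 4088 of the 5180 UMIs of Ttr (78.9%), while 1 naive cell held 55.0% of the naive Ttr. Vtn, which encodes vitronectin, is abundant in mural cells, and Ttr, which encodes transthyretin, in the choroid plexus.

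Chemokine genes were higher in members as a list. Of 13 measured, 12 were above and 1 below the naive level, with a median log2 ratio of 0.41, against a median of -0.01 over all measured genes, of which 1471 were above and 1571 below. The median was 0.60 without shared barcodes, 0.31 in cells with a low marker sum, 0.62 against the naive sample labelled depleted and 0.12 against that labelled control, where 9 of 13 were above. Ccl2, a chemokine that draws monocytes, had 14.4 CP10k in members and 9.27 in naive microglia, with 9.35 in the sample labelled depleted and 8.85 in that labelled control. It was above both naive samples, as were Cxcl2 and Ccl12, another chemokine for monocytes at 16.6 in members against 14.2 CP10k in naive microglia. Ccl3 and Ccl4 behaved otherwise. Ccl4 had 51.8 CP10k in members and 39.0 in naive microglia, but 54.2 in the naive sample labelled control, and Ccl3 had 24.1 in members, against 15.4 in the naive sample labelled depleted and 25.8 in that labelled control. Ccl7 differed least, at 0.713 in members and 0.717 CP10k in naive microglia.

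Of the Cxcr3 ligands, Cxcl10 was close to its naive level over all members, and Cxcl9 was so once macrophage-marked cells were set aside. Cxcl10 had 7.34 CP10k (7.14 to 7.53) in members and 6.41 CP10k (6.18 to 6.64) in naive microglia, a log2 ratio of 0.19 that became -0.08 when the naive rule was set at 11 UMIs to match the lower corrected totals of that matrix. After thinning, 21.4% of members and 21.2% of naive microglia had at least 4 UMIs of Cxcl10. Cxcl9 had 1.18 CP10k in members and 0.544 in naive microglia, from 50 and 30 cells with a UMI. Its log2 ratio of 0.99 was -0.07 in cells with a low marker sum and -0.31 in cells with under 10 UMIs of H2-Aa, but 1.40 without shared barcodes (0.778 CP10k in members and 0.234 in naive microglia) and 1.25 against the naive sample labelled control.

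Among cytokines, 5 of 6 measured genes were above and 1 below the naive level, with a median log2 ratio of 0.49, which was 0.61 without shared barcodes, 0.55 in cells with a low marker sum and 0.12 against the naive sample labelled control. Tnf, a central inflammatory cytokine, had 15.3 CP10k (15 to 15.5) in members and 8.74 CP10k (8.48 to 9.01) in naive microglia, with 8.50 in the sample labelled depleted and 9.98 in that labelled control. Il1a, an alarm cytokine made by microglia, had 12 in members and 7.89 CP10k in naive microglia. Both stood above each naive sample. Il1b had 10.4 CP10k (10.1 to 10.6) in members and 5.46 (5.26 to 5.68) in naive microglia, but 8.70 in the naive sample labelled control, so its log2 ratio of 0.91 was 0.25 against that sample. Tgfb1, which sustains the resting programme, had 2.77 CP10k in members and 2.79 in naive microglia.

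Some single genes, which do not stand for their pathways, were among the highest ratios. Dusp2, a phosphatase of MAP kinases, had 2.58 CP10k in members and 1.28 in naive microglia, but Dusp6, another such phosphatase, was among the 12 lowest ratios, at 1.71 CP10k in members and 2.85 in naive microglia. Gadd45b, a stress response gene, had 3.01 in members and 1.51 CP10k in naive microglia, and Slc7a11, the cystine transporter, 1.08 in members and 0.505 CP10k in naive microglia. Of the receptors, Cd14, which hands lipopolysaccharide to Tlr4, had 7.40 in members and 5.01 CP10k in naive microglia, and Tlr2 had 4.23 in members and 2.99 CP10k in naive microglia. Over the 6 measured pattern recognition receptors 4 were above and 2 below, with a median of 0.07. Lgals3, which encodes galectin-3 and is abundant in macrophages (33.7 CP10k), had 3.66 in members and 1.84 CP10k in naive microglia, and its log2 ratio of 0.95 was 0.33 in cells with a low marker sum.

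**Figure D2:**
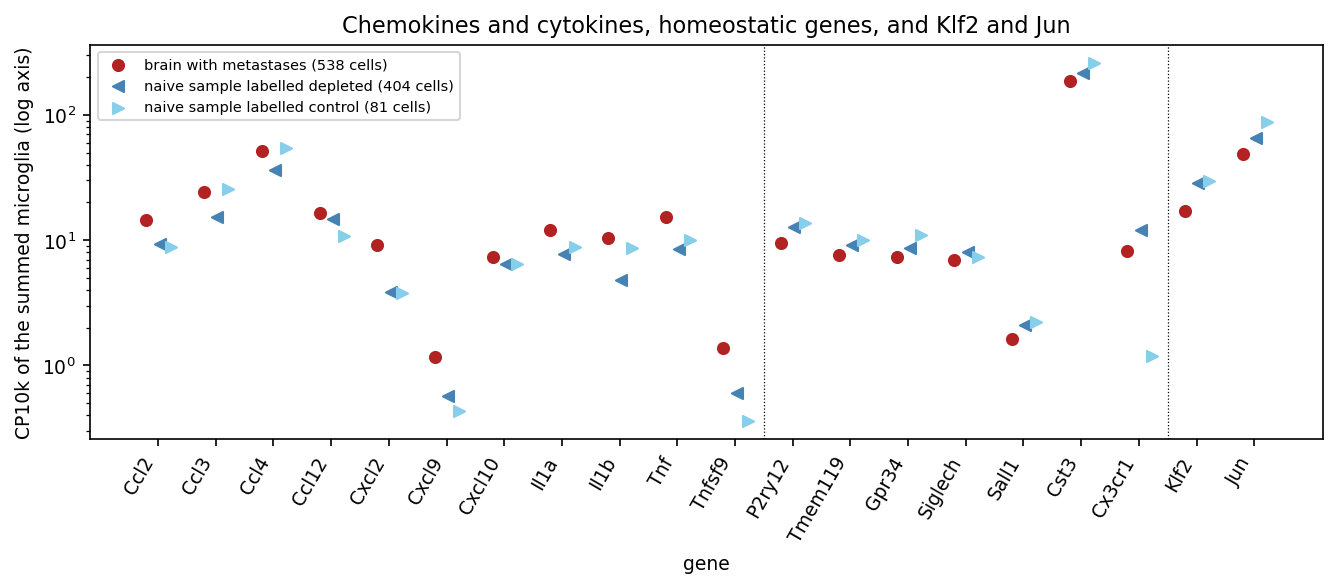
Level of 20 genes (CP10k, log axis) in 538 microglia of the brain with metastases, 404 of the naive sample labelled depleted and 81 of the naive sample labelled control, in 3 blocks for chemokines and cytokines, homeostatic genes, and Klf2 with Jun. Cxcl2, Tnf and Ccl2 in members lay above both naive samples and Klf2 below both, while Ccl3, Ccl4 and Cx3cr1 lay between them.

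Homeostatic genes were lower by small amounts. Of the 23 beyond the rule, 21 were below and 2 above the naive level, with a median log2 ratio of -0.26 that ran from -0.17 to -0.29 over the selections of cells. None was past 2-fold. Sall1 had 1.63 CP10k in members and 2.14 in naive microglia, Siglech 6.93 in members and 7.90 in naive microglia. Selplg, a ligand of selectins, had 12.7 CP10k in members and 15.8 in naive microglia. Slc2a5, a fructose transporter of microglia, had 1.23 CP10k in members and 1.76 in naive microglia, and Tgfbr1, a TGF-beta receptor, 3.98 in members and 5.09 in naive microglia. Their sum was 408 CP10k in members and 474 in naive microglia. The 3 genes of the rule were lower as well, P2ry12 at 9.48 in members and 12.8 CP10k in naive microglia, but the rule set their floor in UMIs and not in CP10k. The transcription factors of microglia had a median log2 ratio of -0.13, with 3 of 12 above and 9 below, and Maf had 2.44 in members and 3.32 CP10k in naive microglia.

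Klf2, a transcription factor that restrains inflammatory genes in myeloid and endothelial cells, was lower by similar amounts in every selection of cells. It had 17.2 CP10k (16.9 to 17.5) in members and 28.8 CP10k (28.3 to 29.3) in naive microglia, with 28.6 in the sample labelled depleted and 29.6 in that labelled control. Its log2 ratio of -0.74 stayed between -0.70 and -0.81 over these selections, and after thinning 35.5% of members and 50.7% of naive microglia had at least 10 UMIs of it. Jun, an immediate early transcription factor, had 48.4 in members and 69.0 CP10k in naive microglia, and Fos, its partner, 39.0 in members and 49.0 CP10k in naive microglia. Of 19 immediate early and stress genes 16 were below and 3 above, with a median of -0.20. Nr4a1, also an immediate early gene, was among those above, at 3.19 CP10k in members and 1.75 in naive microglia. Tmx4, a thioredoxin-related membrane protein gene, had the lowest ratio of all, at 2.54 in members and 5.16 CP10k in naive microglia, a log2 ratio of -0.99.

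**Figure D3:**
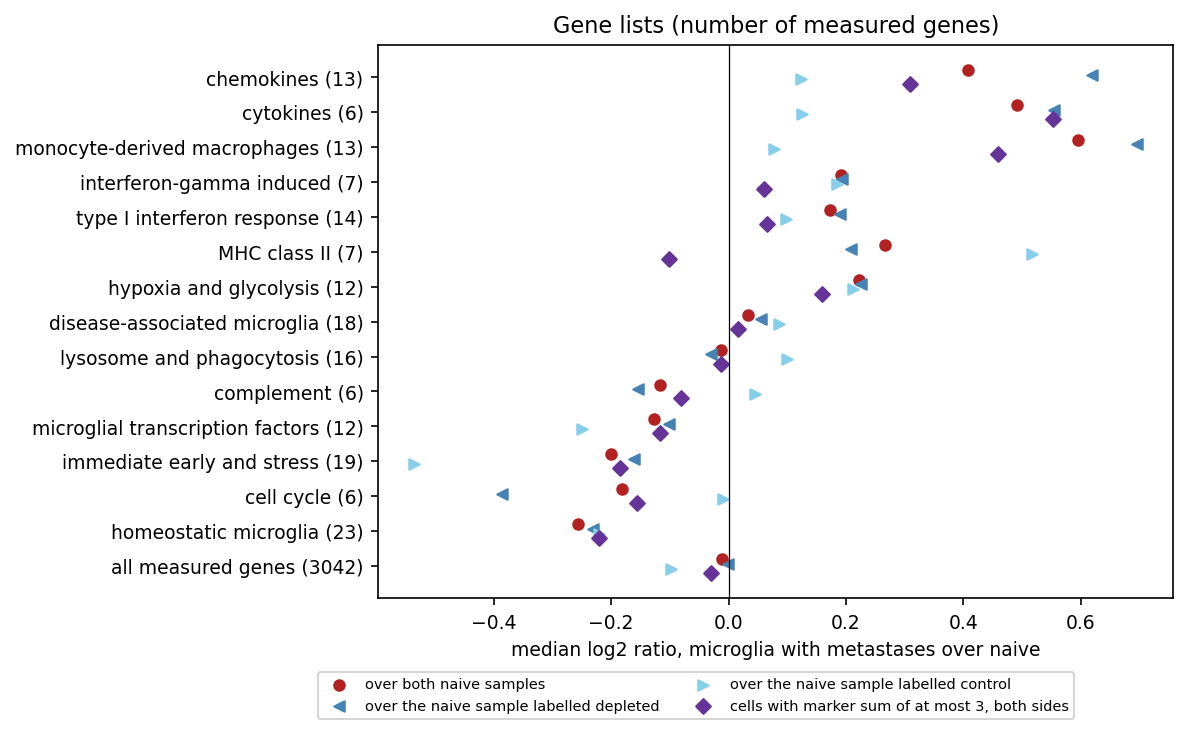
Median log2 ratio of the measured genes of each list, microglia of the brain with metastases over naive microglia, for both naive samples together, for each naive sample and for cells with a marker sum of at most 3. Cytokines and chemokines sit to the right of 0 (0.49 and 0.41 with both naive samples) and homeostatic genes to the left (-0.26), and the macrophage list moves from 0.70 against the sample labelled depleted to 0.08 against that labelled control.

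Among the other lists, those of lysosomal, checkpoint, complement and disease-associated genes had medians between -0.12 and 0.03, and the macrophage list lay farther above than cytokines did. Genes of disease-associated microglia, a lipid and lysosome programme seen around amyloid, had a median log2 ratio of 0.03, with 10 of 18 above. Spp1, which encodes osteopontin, had 2.44 CP10k in members, against 1.19 in the naive sample labelled depleted and 3.07 in that labelled control. Lysosomal genes had a median of -0.01, complement genes -0.12 with C1qa at 84.2 in members and 96.9 CP10k in naive microglia, and checkpoint and costimulation genes -0.11 with Vsir, which encodes VISTA, at 4.59 in members and 5.53 CP10k in naive microglia. Glycolytic genes were above in 10 of 12 cases with a median of 0.22, among them Pkm, a pyruvate kinase gene, at 3.81 in members and 2.93 CP10k in naive microglia. Type I interferon genes had a median of 0.17 with 11 of 14 above, and MHC class II genes 0.27 with 4 of 7 above. In cells with a low marker sum those medians were 0.07 and -0.10. All 6 measured cell cycle genes were below, with a median of -0.18, yet 10.0% of members and 8.45% of naive microglia had a Mki67 UMI after thinning. The macrophage list was above in 13 of 13 measured genes with a median of 0.60, but its median was 0.08 against the naive sample labelled control. The list of red cell genes was above in 4 of 4 with a median of 0.84, and 1 cell held 55.6% of the UMIs of Hbb-bs, a haemoglobin gene, in members and another 94.3% in naive microglia.

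The second comparison set the microglia beside the macrophages of the same matrix, chosen by at least 20 UMIs of Lyz2 and at most 3 UMIs summed over the 3 microglial genes, within the same limits on Krt8, Cd3e and S100a9 and with Ccr7 at or below 3 UMIs. Both were handled in 1 matrix. Of 3326 measured genes, 455 were at least 2-fold higher in microglia (13.7%) and 467 at least 2-fold lower (14.0%). The rules used microglial genes on one side and Lyz2 on the other, so identity genes had to differ and are given as a description. The highest ratios included Ltc4s, leukotriene C4 synthase and a gene of the homeostatic list, at 4.64 in microglia and 0.0829 CP10k in macrophages. Beyond that list they included Ptgs1, cyclooxygenase 1, at 3.64 in microglia and 0.0717 CP10k in macrophages. Cd81, a tetraspanin, had 26.0 in microglia and 0.904 CP10k in macrophages.

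Cytokines and chemokines were divided between both populations. Microglia had more Ccl3 (24.1 CP10k, against 4.93 in macrophages), Ccl4 (51.8 against 18.3), Ccl12 (16.6 against 4.94), Tnf (15.3 against 3.66) and Il1a (12 against 0.812). They also had more Csf1, the growth factor of macrophages, at 1.30 against 0.0544 CP10k. Macrophages had more Cxcl9, so that microglia held 1.18 against 12.6 CP10k, and more Cxcl10, at 7.34 in microglia and 24.3 in macrophages. The same held for Cxcl2 at 9.17 against 41.5, for Il1b at 10.4 against 53.0, and for Ccl8, a chemokine for monocytes, at 0.0629 against 2.40 CP10k. The list of chemokines held 4 genes at least 2-fold higher and 8 at least 2-fold lower in microglia, of 15 measured. Cxcl2, higher in members than in naive microglia, was thus higher still in macrophages.

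Interferon genes marked the macrophages. Of 26 measured type I interferon genes 22 were at least 2-fold lower in microglia, and of 16 interferon-gamma induced genes 15 were, as were 6 of 7 MHC class II genes. Ifitm3, an antiviral membrane protein gene, had 6.63 in microglia and 39.1 CP10k in macrophages. Immediate early genes ran the other way, with 11 of 19 at least 2-fold higher in microglia, among them Rhob, a small GTPase gene, at 20.4 in microglia and 1.25 CP10k in macrophages. Of 16 lysosomal genes 7 were higher and 1 lower, and Ctsd, which encodes cathepsin D, had 87.6 in microglia and 8.13 CP10k in macrophages. C1qa stood at 84.2 in microglia and 14.7 CP10k in macrophages. Glycolytic genes were at least 2-fold lower in 9 of 14 cases and higher in 1. The shares of interferon and glycolytic genes lie above the background of 14.0%, and genes of 1 list share cells and are not independent.

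The third description divided the microglia by H2-Aa. At least 10 UMIs of it were found in 70 of 538 members (13%, 10.3 to 16.2%), against 10.3% of naive microglia, 45.8% of macrophages and 5.40% of T cells. H2-Aa was at 0 in 362 members, at 1 to 3 UMIs in 94, at 4 to 9 in 12, at 10 to 29 in 23 and at 30 to 232 in 47. The limit of 10 thus lies in a thin stretch of the range. Without barcodes listed in another matrix the share was 7.11% (30 of 422), and with a marker sum of at most 3 it was 3.16% (13 of 411). The T cells were not held to that marker limit, which 66.6% of them exceeded, so their share is not set beside the 3.16%. After thinning to 5000 UMIs the share was 8.74% in members and 8.04% in naive microglia.

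**Figure D4:**
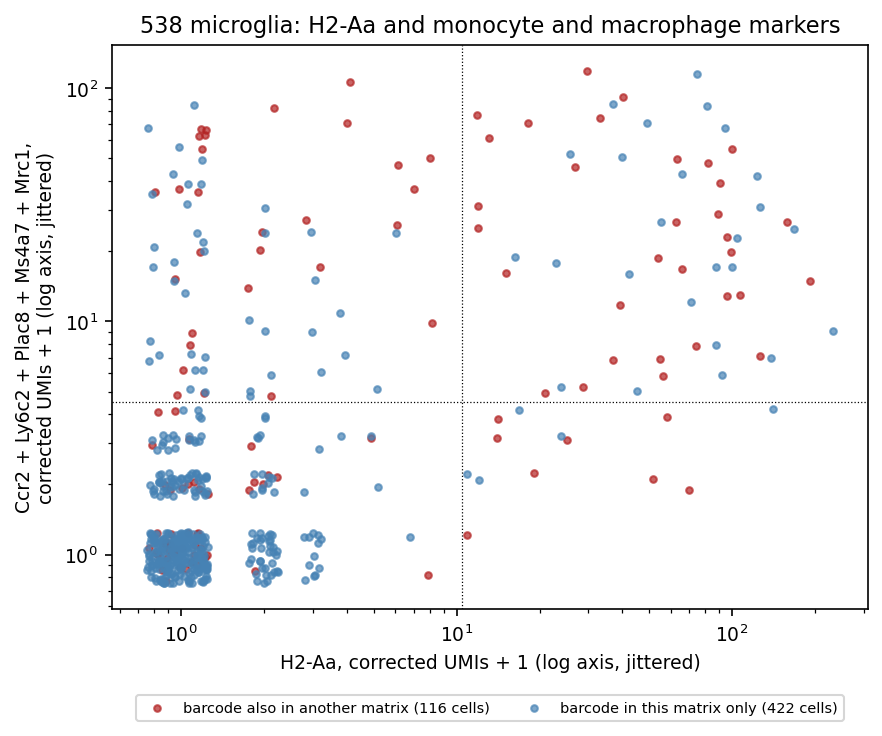
UMIs of H2-Aa plus 1 and the sum of Ccr2, Ly6c2, Plac8, Ms4a7 and Mrc1 plus 1 in each of the 538 members, jittered on log axes, with dotted lines at the limits of 10 and 3 UMIs. Cells in the upper H2-Aa range lie mostly above the marker limit (57 of 70), and colour marks the 116 cells whose barcode is listed in another matrix.

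Cells with high H2-Aa carried more than the other class II genes. Since the split uses the same cells, its genes are given as a description. Of 3119 measured genes 215 were at least 2-fold higher (6.89%) and 11 at least 2-fold lower (0.353%). H2-Ab1 had 44.2 CP10k in these cells and 0.849 in the other members, and Cd74, the invariant chain, 103 in these cells and 2.33 in the other members. H2-DMb1, which edits peptides in the groove, had 5.06 CP10k in these cells and 0.984 in the others, and Ciita, the transcriptional activator of class II genes, 0.811 in these cells and 0.0294 in the others. Of 10 measured class II genes 8 were past 2-fold, with a median log2 ratio of 2.53. Psmb9, an interferon-induced proteasome subunit gene, had 2.89 CP10k in these cells and 1.14 in the others, and Gbp2, a guanylate binding protein gene, 2.64 in these cells and 0.639 in the others.

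The same cells carried genes of infiltrating leukocytes. The marker sum was over 3 in 57 of 70 (81.4%), against 70 of 468 other members (15%). The macrophage list was past 2-fold in 12 of 14 genes with a median of 1.66, and Lyz2 was at 45.2 CP10k in these cells, 15.9 in other members and 148 in macrophages. Genes of dendritic cells were also high, with Ccr7, the receptor of migrating dendritic cells, at 2.12 CP10k in these cells and 0.0403 in the others. Cd209a, a lectin gene, was at 1.55 CP10k in these cells and 0.0062 in the others, and Cd79a, the signalling chain of the B cell receptor, at 1.37 in these cells and 0.0325 in the others. These genes mark cell types other than microglia. The sum of Ccr7, Cd209a, Mgl2, Flt3, Cd79a and Ms4a1 was over 3 in 30 of 70 cells (42.9%), against 6 of 468 (1.28%). Neither sum was over 3 in 1 of 70 cells, against 392 of 468 (83.8%).

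Over all members, microglial genes were lower in the same cells, and shared barcodes more frequent. Siglech had 5.04 CP10k in cells with high H2-Aa and 7.23 in other members. Sparc, a matrix protein gene of microglia, had 20.5 CP10k with high H2-Aa and 33.3 in other members. Of 23 homeostatic genes 21 were below, with a median of -0.45, and Siglech still stood far above its level of 0.0777 CP10k in macrophages. The homeostatic median was smaller in size, at -0.11, among cells with a marker sum over 3 (57 and 70 cells), with 8 above and 15 below. Among cells with a low marker sum (13 and 398 cells) it was -0.36, with 1 above and 22 below. Barcodes listed in another matrix made up 40 of 70 (57.1%), against 76 of 468 (16.2%). Among the shared cells, the median was 34271.5 raw UMIs (6446 to 101276) with high H2-Aa and 20207 raw UMIs (4882 to 64677) without. The part of droplets with more than 1 cell in this split was not tested.

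The gradation was in steps. With 0, 1 to 3, 4 to 9, 10 to 29 and 30 or more UMIs of H2-Aa, the share of cells with a marker sum over 3 was 11.3, 23.4, 58.3, 60.9 and 91.5%, and the share with a barcode in another matrix was 14.6, 17.0, 58.3, 65.2 and 53.2%. Siglech was at 7.14, 7.72, 6.07, 5.56 and 4.80 CP10k in the same order. Siglech was thus no lower in cells with 1 to 3 UMIs than in those with 0, and it was lower from 4 UMIs on, although the bin of 4 to 9 holds only 12 cells. Ccr7 and Cd79a were highest in the bin of 10 to 29, at 3.42 and 3.69 CP10k, and Cxcl9 in the top bin, at 9.50 CP10k.

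Type I interferon genes differed by marker sum. Over all members, the 22 measured type I interferon genes had a median log2 ratio of 1.09 between cells with high H2-Aa and the rest, with 12 past 2-fold, and the 12 interferon-gamma induced genes had 0.94, with 5 past 2-fold. Within the 411 cells with a low marker sum the type I median was -0.04 (13 with high H2-Aa, 398 without), and within the 127 cells with a high sum it was 0.42 (57 and 70 cells). The median of interferon-gamma induced genes was 0.30 with a low sum, where 6 were measured and 2 were past 2-fold in each direction, and 0.54 with a high sum. The class II median was 2.95 with a low sum and 2.56 with a high one. Cxcl9 was at 8.54 CP10k with high H2-Aa and 1.34 without among cells with a high marker sum, but at 0.0553 with high H2-Aa and 0.0495 without among cells with a low one. In the low stratum Ccr7 stood at 5.98 CP10k with high H2-Aa and 0.0458 without, and Cd79a at 5.75 with high H2-Aa and 0.0385 without, so the 13 cells, chosen for few macrophage markers, carried dendritic and B cell genes. Across cells H2-Aa had a Spearman correlation of 0.654 with H2-Eb1 over 538 members and 0.378 over the 411 with a low sum, and one of 0.455 and 0.138 with Ccr2, a monocyte chemokine receptor gene. Without shared barcodes the medians over all members were 1.18 for type I interferon and 2.37 for class II genes.

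Over all members, the chemokines Ccl3 and Ccl4 and the cytokine Il1a were lower in cells with high H2-Aa. Ccl4 had 28.8 CP10k in them and 55.4 in other members, and Ccl3 13.8 in them and 25.8 in other members. Il1a had 6.02 CP10k in them and 13 in other members, and was among the 11 genes past 2-fold. Those 11 also held Ttr, Vtn, Mgp and the 4 measured red cell genes, several of which rested on few cells. At least 10 UMIs of Hbb-bs were found in 4 members, 0 of them with high H2-Aa. Il1b and Ccl5 ran the other way. Il1b had 20.7 CP10k in cells with high H2-Aa, 8.74 in other members and 53.0 in macrophages, and Ccl5, a chemokine for T cells, 11.5 with high H2-Aa and 2.42 in other members. In the stratum with a low marker sum Il1b was at 6.09 CP10k with high H2-Aa and 7.27 without, so its direction turned. Ccl4 was there at 18.6 with high H2-Aa and 60.1 without, Ccl3 at 12.8 and 27.9, and Il1a at 4.43 and 14.2. Among cells with a high marker sum (57 and 70 cells) the chemokine list had a median log2 ratio of 0.07, with 10 above and 4 below. The cytokine list had 0.32 there, with 6 above and 2 below. The part of the marker sum in these differences was not tested.

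Apart from H2-Aa, members differed in genes that few cells held in large amounts. The variance over the mean of thinned UMIs (Fano factor) had a median of 1.13 over 3729 genes and was highest for Hbb-bs, a haemoglobin gene, at 990, with at least 10 UMIs in 4 cells, and for Ttr at 953. Hba-a1 and Hba-a2, also haemoglobin genes, had 364 and 309. Apoe, the lipid carrier, had 211, and the top 54 cells held 72.8% of its UMIs. Its value was not lost in cells with a low marker sum, where it was 168. Lyz2 and Cxcl9 were, with Fano factors of 32.8 and 24.6 over all members and 3.64 and 1.34 in cells with a low sum. Cxcl10 and Ccl2 kept theirs, at 22.4 and 20.7 over all members and 23.6 and 22.5 in cells with a low sum.

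**Figure D5:**
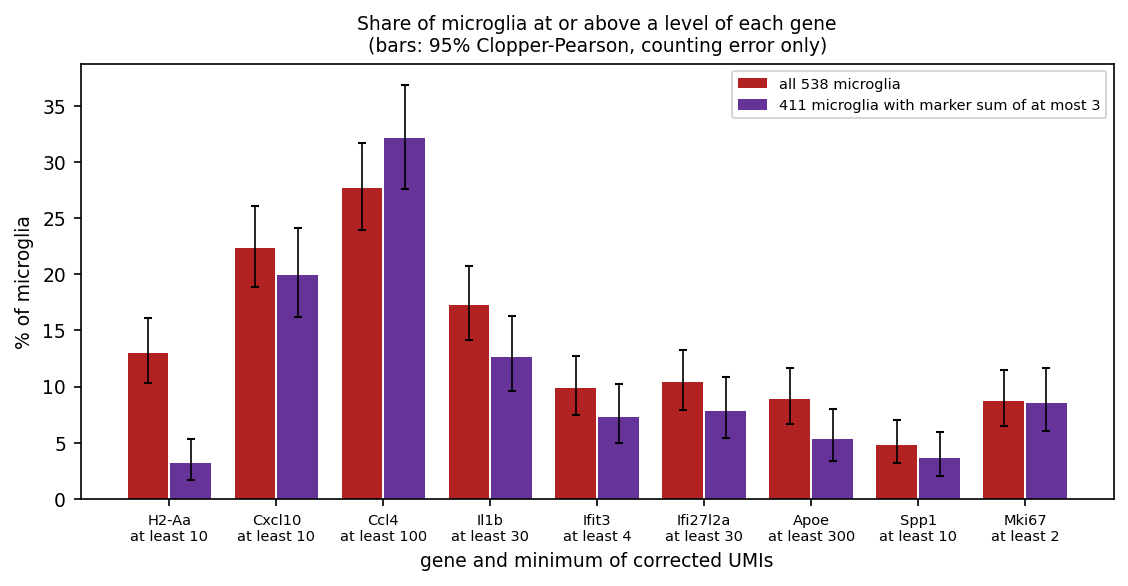
Share of cells (%) at or above a level of UMIs for 9 genes, in all 538 members and in the 411 members with a marker sum of at most 3, with 95% Clopper-Pearson intervals. H2-Aa differs most between both sets, at 13% of all members and 3.16% of those with a low marker sum, while Mki67 is at 8.74% and 8.52%.

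Cxcl10 was held by a minority of microglia. At least 10 UMIs were found in 120 of 538 members (22.3%) and in 82 of 411 with a low marker sum, against 15.7% of naive microglia, 9.23% of T cells and 35.1% of macrophages. In cells with a low marker sum, those with high Cxcl10 had 88.3 CP10k of Ccl4, against 51.1 in the rest, 6.70 of Tlr2, against 3.90, and 1.72 of Ifit3, an antiviral gene induced by type I interferon, against 0.448 CP10k. H2-Aa was at 0.121 CP10k in Cxcl10-high cells and 1.23 in the rest of the cells with a low sum, but over all members the direction turned, with 8.57 CP10k in Cxcl10-high cells and 5.43 in the rest. Of cells with at least 100 UMIs of Ccl4, 33.6% also passed the level of Cxcl10, against 22.3% of all members, and 41.7% of Cxcl10-high cells passed that of Ccl4, against 27.7%. Tlr2 was the gene with the highest Spearman correlation with Cxcl10, at 0.312 over 538 cells and 0.328 over the 411, which is weak and shares depth between genes.

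Ifit3 marked an interferon group. At least 4 UMIs of Ifit3 were found in 53 members (9.85%) and in 30 with a low marker sum (7.30%), while T cells and macrophages, which carry the gene themselves, passed that level in 24.2% and 23.9%. The share was 6.80% in naive microglia. After thinning, 8.36% of members and 8.66% of naive microglia had at least 2 UMIs of Ifit3. Among cells with a low sum, the 30 had 9.44 CP10k of Isg15, an interferon-induced ubiquitin-like protein gene, against 0.674 in the rest, 24.5 of Cxcl10, against 5.13, and 29.2 of Ccl2, against 13.8 CP10k. Apoe was at 111 CP10k in the 30 cells and 36.6 in the rest. P2ry12 was at 7.42 in the 30 cells and 10.2 CP10k in the rest. The genes nearest to Ifit3 by Spearman correlation were themselves interferon-induced, with Slfn5 at 0.540 over all members and 0.489 with a low sum. The overlap was partial, since 49.1% of Ifit3-high members were Cxcl10-high and 21.7% of Cxcl10-high members were Ifit3-high. Ifit3 and Ifit3b are near-identical copies, as are several class I genes, and counts may be split between copies.

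Ccl4 marked another group, and the size of each group follows the limit chosen for its gene. At least 100 UMIs were found in 149 members (27.7%) and in 132 with a low marker sum (32.1%). The share was 14.4% in naive microglia, 2.09% in T cells and 6.07% in macrophages. After thinning, 24.9% of members and 16.9% of naive microglia had at least 40 UMIs, and 70.1% and 57.5% had at least 4. Among cells with a low sum the 132 had 57.5 CP10k of Ccl3, against 12.9 in the rest, and 27.0 of Tnf, against 11.9. Ccl2 was at 23.5 CP10k in them and 10.7 in the rest. Siglech differed little, at 7.56 CP10k in these cells and 7.69 in the rest. Ccl3 was also the gene closest to Ccl4 across cells, with a Spearman correlation of 0.757 over 538 cells and 0.760 over 411. Il1b at 30 UMIs or more was found in 93 members (17.3%) and in 52 with a low sum (12.7%). The share was 5.57% in naive microglia and 4.36% in T cells. After thinning, 19.1% of members and 9.07% of naive microglia had at least 10 UMIs of Il1b. Those 52 had 96.7 CP10k of Ccl4, against 53.1 in the rest, 26.6 of Tnf, against 15.4, and 23.4 of Il1a, against 12.5 CP10k. Per cell, the summed chemokine and cytokine lists had a Spearman correlation of 0.581, and 0.593 with a low marker sum.

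At the limits chosen, lipid and lysosome genes picked out few cells. At least 300 UMIs of Apoe were found in 48 members (8.92%) and 22 with a low marker sum (5.35%). After thinning, 9.29% of members and 10.1% of naive microglia had at least 100 UMIs of Apoe. Those 22 had 3.80 CP10k of Cst7, a cathepsin inhibitor gene of disease-associated microglia, against 1.05 in the rest, and 14.9 of Lyz2, against 6.57, but only 6.24 of Il1a, against 14.3 CP10k. At least 10 UMIs of Spp1 were found in 26 members (4.83%) and 15 with a low sum (3.65%). The share was 3.09% in naive microglia, 0.174% in T cells and 15.4% in macrophages. After thinning, 5.39% of members and 3.51% of naive microglia had at least 4 UMIs of Spp1. The 15 had 6.50 CP10k of Cst7, against 0.985 in the rest, 124 of Apoe, against 38.8, and 11.3 of Tlr2, against 4.20 CP10k. These are levels of summed cells, which a few cells can carry, and of the 26 members 7 (26.9%) also passed the level of Apoe, against 8.92% of all members.

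Dividing cells were present. Mki67, a gene of cycling cells, had at least 2 UMIs in 47 members (8.74%, 6.49 to 11.4%) and in 35 with a low marker sum (8.52%). The share was 6.60% in naive microglia, 13.9% in T cells and 5.48% in macrophages. Of the 47 members, 25.5% had a marker sum over 3 and 23.4% a barcode listed in another matrix. Among cells with a low sum the 35 had 4.11 CP10k of Top2a, a topoisomerase of dividing cells, against 0.0798 in the rest. Cxcl10 was at 15.5 CP10k in them and 5.68 in the rest, Ifi27l2a, an interferon-induced gene, at 15.4 in them and 8.27 in the rest, and Apoe at 22.2 in them and 44.0 in the rest. Cenpa, a centromere gene, was the gene closest to Mki67 across cells, at 0.442 over 538 cells and 0.504 over 411.

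Cx3cr1, whose promoter drives the recombinase, was spread widely among members. It stood at 8.24 CP10k in members, 12.1 in the naive sample labelled depleted and 1.19 in that labelled control. At most 2 UMIs of it were found in 84 of 538 members (15.6%, 12.6 to 19%), of which 47 had 0, and the quartiles were 6, 11 and 16 UMIs with a highest value of 52. At most 2 UMIs were found in 9 of 404 microglia of the naive sample labelled depleted (2.23%), in 71 of 81 of that labelled control (87.7%) and in 763 of 840 macrophages (90.8%). The members thus lay between both naive samples and nearer to the one labelled depleted. The cells of the brain with metastases were not divided by Cx3cr1, because that gene is a readout and not a label of their genotype.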

How the data were processed

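The 3 samples of the series are the RNA, antibody and hashtag libraries of 1 droplet pool, and 3 matrices of the RNA were used, for the brain with metastases, the naive brain and the blood of mice with metastases. Per the submitters' processing notes, Cell Ranger 3.1, Seurat 3.1.1 and mm10 were used. Each value that the authors deposited is a natural log: 1 was added to a depth-corrected UMI count, as Seurat's SCTransform writes it, matrix by matrix. After the log was undone, 100% of values were whole within 1e-06 in each matrix. These corrected UMIs are not raw counts, so no count model was fitted and the Poisson intervals are approximate. Raw UMI counts per cell, gates and arms came from the tables of cell annotation that the authors deposited for the naive brain and the blood, and the corrected total per cell in them, held as a score here because the authors made it by depth correction, equalled the matrix sums.

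Corrected UMIs were summed over cells and scaled to 10000 (CP10k). Log2 ratios used a pseudocount of 0.1 CP10k, genes counted as measured at 0.5 CP10k on at least 1 side, and 2-fold was the size limit for the counts given. The brain with metastases is 1 pool and the 2 naive samples carry different labels, so no group holds replicates, no test was made and no p-value is given. Whether more than 1 mouse stands behind a hashed sample is not stated in the sources used here. T cells had at least 4 UMIs of Cd3e and at most 2 UMIs summed over P2ry12, Tmem119 and Gpr34. To compare shares across depths, each cell was thinned to 5000 UMIs. No doublet caller was run, since raw counts per gene were not used.

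The members and the 30 gene lists were chosen with earlier results of these data known. Genes were named if they belong to a list, were among the 12 highest or 12 lowest ratios of a comparison, the 25 highest Fano factors, or the 15 genes closest to H2-Aa, leaving out mitochondrial and ribosomal protein genes, unnamed models, antigen receptor genes and genes of the sex chromosomes that mark sex from choice by size. The genes closest to other genes across cells, and those set beside a high level of another gene, were picked after their values were seen. Python packages were numpy 2.4.6, pandas 2.3.3, scipy 1.17.1 and matplotlib 3.10.9. The ratio step was tested on simulated data, where 195 of 200 altered genes came within 0.4 of their log2 ratio and 0 of 2572 others passed 2-fold. Alternatives changed the microglial sum, the cells kept, the depth, the pseudocount, the minimum level, the H2-Aa limit and the naive sample. Some genes are not reported here.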

Additional observations from a re-analysis of the deposited data

How the results depend on the processing

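No paired analysis was possible because no group holds replicates: the brain with metastases is 1 pool, and the 2 naive samples carry different labels and no replicate numbers. For the brain with metastases over the naive brain, the 5 genes at least 2-fold higher became 8 and 26 with a microglial sum of at least 10 and 30, 21 without shared barcodes, 11 with a marker sum of at most 3, 10 and 1 with pseudocounts of 0.01 and 1, 2 with a minimum level of 2 CP10k, 16 against the naive sample labelled control alone and 12 against that labelled depleted alone. The 0 lower genes became 4 with a sum of at least 10, 2 with a sum of at least 30, 1 without shared barcodes, 1 with a pseudocount of 0.01, 2 with a minimum of 0.2 CP10k and 33 against the naive sample labelled control. Of 3 alternatives chosen after seeing the data, leaving out the highest cell for each gene gave 10 higher, leaving out cells with H2-Aa of at least 10 gave 10 higher, and a naive limit of 11 gave 3 lower. For H2-Aa, the 215 higher genes became 56 with a pseudocount of 1 and 352 and 61 with minimum levels of 0.2 and 2. The 11 lower genes became 28 with a sum of at least 30, 40 without shared barcodes, 92 with a low marker sum, 5 with a pseudocount of 1, 20 and 6 with minimum levels of 0.2 and 2, and 18 with H2-Aa of at least 20. Against macrophages, the 455 higher genes became 156 with a pseudocount of 1 and 154 with a minimum of 2, and the 467 lower genes 176 and 212. The 13% of members with high H2-Aa became 8.77% with a sum of at least 30, 7.11% without shared barcodes, 3.16% with a low marker sum and 8.74% after thinning. Ttr turned to -0.069 between brains with a sum of at least 30. With a low marker sum, 13 against 398 cells, these log2 ratios of high H2-Aa turned: Tgfbi -0.040, Clec4e -0.67, Ifi47 -0.30, Cd274 -1.67, Ifit1 -0.26, Ifit2 -1.98, Ifit3b -0.68, Isg15 -0.63, Oasl2 -0.15, Mx1 -0.091, Irf7 -0.044, Rsad2 -1.33, Zbp1 -0.16, Ccl7 -1.22, Il1b -0.25, Il1rn -0.41 and Gpnmb -0.29. Mgp turned to 2.05 with H2-Aa of at least 5. Over named genes and alternatives, 2911 ratios between brains, 2760 of the H2-Aa split and 1948 against macrophages lay within their counting interval. A further 704, 848 and 1208 lay outside it, in the same direction or from within 2-fold. Some main log2 ratios lay outside their own interval too, such as Vtn between brains, at 2.66 with 4.49 to 7.08. Others lay within theirs, such as Cxcl2 between brains, at 1.24 with 1.18 to 1.33. The 704, 848 and 1208 are therefore not counts of ratios that an alternative moved. Higher pseudocounts and minimum levels shrink ratios of low genes or remove them by construction, and the cause of the other shifts was not tested.

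Corrected UMIs are depth-adjusted within a matrix, so levels in CP10k of genes near 0.5 rest on few molecules per cell, and a limit in UMIs is a stricter one in the naive matrix. No group holds replicates, so no value here measures the spread between mice, and both genotypes are pooled in the brain with metastases. Cells that share barcodes between matrices, and markers of other leukocytes, go with the H2-Aa split, as the values above show. Single cells held most UMIs of Vtn and of Ttr in members.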

Other observations

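Ifi27l2a, an interferon-induced gene, had at least 30 UMIs in 56 members (10.4%) and in 32 with a low marker sum (7.79%). After thinning, 14.7% of members and 11.1% of naive microglia had at least 10 UMIs of it. Those 32 had 8.76 CP10k of Ifitm3, against 3.43 in the rest, and 1.26 of Irf7, an interferon-induced transcription factor gene, against 0.512 CP10k. Their level of Jun was lower, at 31.7 CP10k, against 54.3 in the rest, and Mki67 was at 2.29 CP10k, against 0.44 in the rest. Cxcl10 was at 7.84 CP10k in them and 6.44 in the rest. Over all members 17 of the 56 (30.4%) were also Ifit3-high, against 9.85% of members, and 32.1% were Cxcl10-high, against 22.3%.

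Immediate early genes went together across members whatever the marker sum. Fos had a Spearman correlation of 0.641 with Dusp1, a phosphatase gene of MAP kinases, over 538 cells and 0.651 over the 411 with a low sum, as a description of cells that share 1 pool. The summed complement list and the lysosome list had one of 0.678 over 538 cells and 0.670 over 411. The summed homeostatic list and the macrophage list had one of -0.438 over all members, against -0.122 with a low marker sum.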
